A study of Mus musculus with 12 samples.

Results

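Grafted CD45.1 macrophages and host CD45.2 microglia of the same brains were compared at rest and after a challenge with lipopolysaccharide (LPS), to ask where the chromatin difference between the populations changed with the challenge. The measure is the population by treatment term, the log2 ratio of CD45.1 over CD45.2 after LPS minus the same ratio at rest. All 12 of the 12 ATAC-seq libraries enter it, and its members are accessible regions (peaks) found in both treatments, paired where the untreated and the LPS window overlapped each other by at least 50%. This gave 39390 pairs from 60288 untreated and 54953 LPS peaks, or 65.3% and 71.7% of them, and 39235 pairs with more than 10 tags in at least 1 library were tested.

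Untreated mice 4, 5 and 6 gave the resting groups and mice 1, 2 and 3 the LPS groups, each with n = 3 libraries of grafted (CD45.1) and n = 3 of host (CD45.2) cells. All mice were WT on the C57BL/6J background, had been irradiated with 950 cGy and carried a bone marrow graft. The graft came from congenic WT donors of the CD45.1 allele, so in both treatments the CD45.2 microglia had themselves been irradiated and the transplanted cells had not, and origin and irradiation cannot be told apart in the population difference. Brains were taken 3.5 or 9 months after the transfer (the labels do not assign a mouse to either, and the paper names the longer), in the LPS groups 12 h after 2.5 mg/kg LPS. Cells were sorted as Ly6C/G- CD11b+ CD45lo, and libraries of both populations with the same replicate number were taken to come from the same animal.

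Microglia arise from yolk sac progenitors and maintain themselves in the brain, whereas engrafted cells descend from bone marrow stem cells and enter the parenchyma after irradiation. LPS, a part of the bacterial outer membrane, is sensed through TLR4 and activates NF-kappaB, AP-1 and, later, C/EBP and interferon factors. In ATAC-seq a transposase cuts open DNA, so a peak marks a promoter or enhancer that is accessible, and the number of tags in it rises with the share of cells in which it is open. In such bulk libraries, fewer cells with an open site and a weaker opening in every cell cannot be told apart.

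Libraries held 2966364 to 9107770 tags in all, and those of LPS mice were the shallower. Matched peaks took up 22.8% to 32.9% of the tags in 11 libraries and 15.8% in the CD45.2 library of untreated mouse 4. LPS windows were wider, with a median of 174 bp against 142 bp, and treatment and peak table go together. A factor that multiplies the tags of both populations alike at a peak cancels in the term, whereas tags added alike to both do not. The part of the wider windows in the results was not tested. All 12 macrophage marker genes had matched peaks, with summed levels of 1238 to 1967 normalized tags over the 12 libraries. Of 12 neutrophil markers 6 had none, and the others summed to 122 to 158 in CD45.1 and 87.2 to 96.4 in CD45.2 at rest and to 180 to 184 and 91.5 to 139 after LPS. Monocyte markers (8 of 12 measured) summed to 682 to 868 and 631 to 731 at rest and to 770 to 920 and 751 to 852 after LPS. Lymphocyte (7 of 15), neuron and glia (13 of 16) and endothelial markers (7 of 10) lay between 634 and 950, 778 and 1156, and 544 and 783 in all libraries. The part of these cells in the results was not tested.

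Among peaks found in both treatments, the populations became more alike at a small set of sites after LPS, and almost always in the same way. Sites without a partner window in the other treatment could not enter. With gene tags summed over all peaks, matched or not, the ratio fell at 33 genes and rose at 36. Over matched peaks alone it fell at 22 and rose at 6, so the direction held for matched peaks only. At 88 of 39235 peaks the ratio fell (background 0.224%) and at 7 it rose (0.0178%) by DESeq2 at an adjusted p under 0.05, while 2090 had an unadjusted p under 0.05, 1448 of them with a fall. Of the 88 peaks, 86 started higher in CD45.1 and converged, with a smaller difference after LPS. Only 4 peaks converged from the CD45.2 side, 3 diverged towards CD45.1, 2 diverged towards CD45.2, and none passed from 2-fold in one direction to 2-fold in the other (1 did with edgeR). A further 97 peaks had a constant difference, meaning at least 2-fold in both treatments with a term shown by its own test to be within 2-fold (57 higher in CD45.1 and 40 in CD45.2). The other 39043 peaks were in no class, which does not show that their ratio stayed the same, since the median SE of the term was 0.49 on the log2 scale.

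With the mouse as a replicate block in the fit, the ratio fell at 50 peaks and rose at 1, and 49 of the 50 were among the 88. Without the CD45.2 library of untreated mouse 5 or the CD45.1 library of untreated mouse 6, it fell at 42 or 56 peaks and 45 or 59 converged, and with scaling to total tags it fell at 26 and rose at 1. With every library thinned to the lowest depth, 1 peak passed. All 88 peaks stayed below 0 in each of these fits, and their median term after thinning was -1.98.

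**Figure D1:**
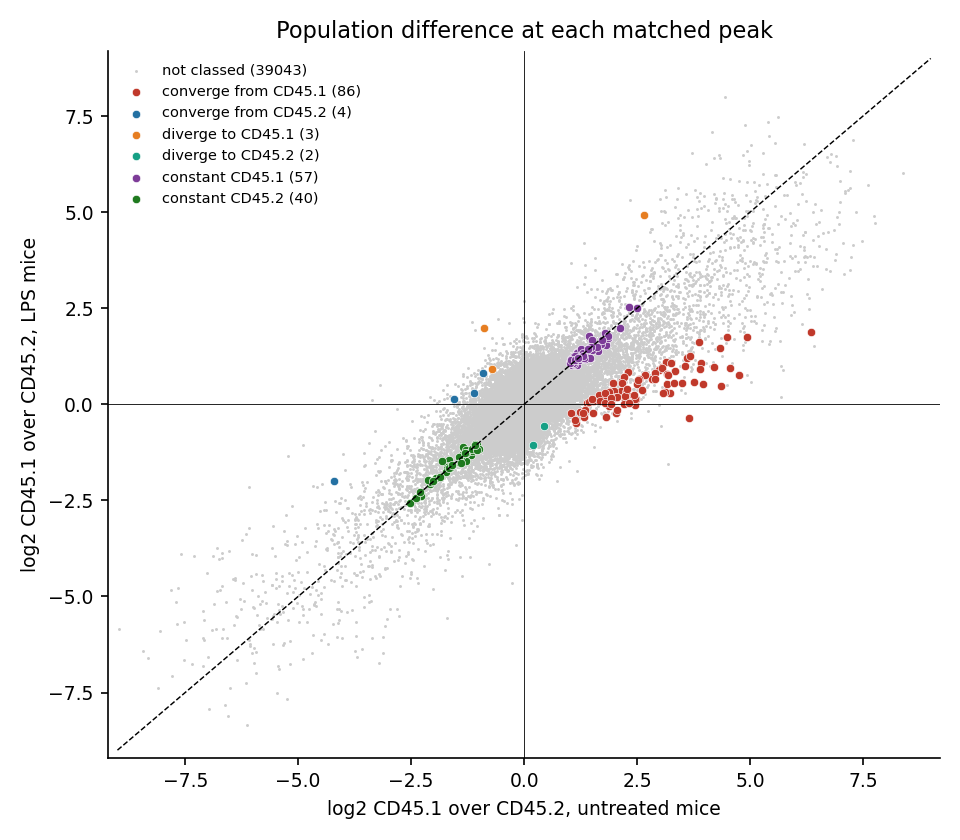
Each point is a matched peak, with the log2 ratio of CD45.1 over CD45.2 in untreated mice on the horizontal and in LPS mice on the vertical axis, coloured by class, with the number of peaks in brackets and the line of equal ratios dashed. The 86 red points start between 1.04 and 6.34 at rest and lie between -0.48 and 1.87 after LPS, while the purple and green points follow the dashed line.

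The middle 200 bases of selected peaks are printed on the plus strand of mm9, with matches to the motifs searched in capitals (the letters of each motif are given with the motif counts). The first 6 are leading converging peaks that hold at least 1 match. A peak that diverged towards CD45.2 (Sirpa) and a peak of constant difference (Arhgap18) follow for comparison. Each is named after the nearest start site, which does not say which gene it serves.
Dppa3, chr6:122585424-122585623: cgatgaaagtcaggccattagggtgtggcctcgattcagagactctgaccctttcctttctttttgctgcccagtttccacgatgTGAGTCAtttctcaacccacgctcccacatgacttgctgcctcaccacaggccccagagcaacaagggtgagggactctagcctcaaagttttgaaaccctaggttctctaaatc
Dppa3, chr6:122600670-122600869: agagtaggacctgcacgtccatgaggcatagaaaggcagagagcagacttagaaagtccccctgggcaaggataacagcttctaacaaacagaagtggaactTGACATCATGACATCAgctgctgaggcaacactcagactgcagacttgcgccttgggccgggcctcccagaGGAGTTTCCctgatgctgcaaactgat
Ms4a4d, chr19:11634197-11634396: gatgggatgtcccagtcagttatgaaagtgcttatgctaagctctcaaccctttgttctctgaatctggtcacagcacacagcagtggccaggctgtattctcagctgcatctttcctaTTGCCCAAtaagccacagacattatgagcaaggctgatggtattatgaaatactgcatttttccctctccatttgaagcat
A230028O05Rik, chr16:24933913-24934112: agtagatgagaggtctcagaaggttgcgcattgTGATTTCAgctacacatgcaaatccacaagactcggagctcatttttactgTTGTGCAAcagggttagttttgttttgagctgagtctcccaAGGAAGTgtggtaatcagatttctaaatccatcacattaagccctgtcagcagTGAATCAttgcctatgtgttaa
Fam49a, chr12:12230250-12230449: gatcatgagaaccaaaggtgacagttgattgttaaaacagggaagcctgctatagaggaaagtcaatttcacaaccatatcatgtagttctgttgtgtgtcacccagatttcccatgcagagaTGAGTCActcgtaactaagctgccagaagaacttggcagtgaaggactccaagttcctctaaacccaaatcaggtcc
Tlr2, chr3:83649168-83649367: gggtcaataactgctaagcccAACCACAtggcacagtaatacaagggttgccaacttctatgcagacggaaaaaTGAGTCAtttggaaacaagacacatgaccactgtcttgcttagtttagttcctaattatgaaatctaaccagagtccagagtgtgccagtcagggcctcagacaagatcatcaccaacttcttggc
Sirpa, chr2:129459126-129459325: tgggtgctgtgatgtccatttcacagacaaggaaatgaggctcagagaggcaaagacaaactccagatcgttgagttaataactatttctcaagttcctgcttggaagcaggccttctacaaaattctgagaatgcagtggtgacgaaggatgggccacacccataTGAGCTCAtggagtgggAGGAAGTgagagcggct
Arhgap18, chr10:26519467-26519666: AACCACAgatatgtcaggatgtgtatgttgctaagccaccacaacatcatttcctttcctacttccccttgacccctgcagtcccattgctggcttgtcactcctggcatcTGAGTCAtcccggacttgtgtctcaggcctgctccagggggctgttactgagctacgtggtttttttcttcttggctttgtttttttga

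At the peak with the smallest p, chr6:122585461-122585582, intergenic and 9079 bp from the start of Dppa3, CD45.1 libraries held 48.5, 56.3 and 70.9 normalized tags (tags over the size factor of the library) in untreated mice 4, 5 and 6. The CD45.2 libraries of these mice held 6.53, 4.74 and 7.69. In LPS mice 1, 2 and 3 the values were 76.2, 73.9 and 81.1 in CD45.1 and 60.5, 55.6 and 71.8 in CD45.2. So all 3 host libraries came up to near the level of the graft, and the log2 ratios by mouse, 2.72 to 3.32 at rest and 0.17 to 0.40 after LPS, did not overlap. The difference of 3.22 (SE 0.34) fell to 0.29 (SE 0.25), a term of -2.94 (SE 0.42, DESeq2 adjusted p 1.09e-07). Its window holds the 1-base-spacer AP-1 letters TGAGTCA once.

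A second Dppa3 peak, chr6:122600750-122600855 at 24360 bp, carries 2 adjacent AP-1 or CRE-like matches and an NF-kappaB match. Its CD45.1 libraries held 34.2, 46.5 and 49.4 tags at rest and 63.3, 73.9 and 89.5 after LPS. Its CD45.2 libraries went from 6.53, 6.85 and 9.89 to 90.8, 58.1 and 82.3. Both populations rose, the host from about 17.9% of the graft's mean to 102% of it (term -2.46, SE 0.42, adjusted p 3.95e-05).

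The Ms4a genes encode membrane proteins with 4 spans, several of them expressed by tissue macrophages. At chr19:11634237-11634341, 22950 bp from Ms4a4d, CD45.2 libraries held 2.18, 1.05 and 3.85 tags at rest and 20.2, 26.5 and 32.4 after LPS. The CD45.1 libraries held 26.8, 25.7 and 36.5 at rest and 19.9, 35.0 and 11.2 after LPS. The host gained a site it had barely shown, while the 3 graft libraries spread widely after LPS, and the term was -4.00 (SE 0.68, adjusted p 3.95e-05). Without the CD45.2 library of untreated mouse 6 DESeq2 gave it no adjusted p.

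Near Fam49a, chr12:12230315-12230420 (38578 bp upstream), both populations opened strongly. CD45.1 went from 29.3, 25.7 and 35.8 tags to 82.0, 132 and 89.5, and CD45.2 from 4.35, 3.16 and 3.30 to 83.2, 78.3 and 78.8. On the log2 scale the graft changed by 1.72 with LPS and the host by 4.52, so that the difference of 3.12 (SE 0.43) at rest was 0.32 (SE 0.24) after LPS (term -2.80, SE 0.49, adjusted p 7.90e-05).

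Tlr2, the receptor for bacterial lipopeptides, had 2 converging peaks among its 11 tested. At chr3:83649160-83649369, 3734 bp upstream, CD45.2 libraries held 32.6, 24.2 and 30.8 tags at rest and 129, 126 and 110 after LPS. The CD45.1 libraries held 87.1, 86.3 and 119 at rest and 143, 146 and 115 after LPS. The graft values of the treatments overlapped and those of the host lay far apart, with a term of -1.60 (SE 0.29, adjusted p 0.000181). At chr3:83689172-83689346, 43729 bp upstream, the means went from 14.3 ± 2.84 to 155 ± 3.95 in CD45.2 and from 80.2 ± 33.0 to 224 ± 32.9 in CD45.1 (mean ± SD, n = 3, term -1.97, SE 0.36, adjusted p 0.000143).

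The promoter of Lilrb4a, an inhibitory immunoglobulin-like receptor of myeloid cells, is chr10:51210601-51210728. It went from 13.1, 12.6 and 11 tags to 80.7, 68.2 and 51.6 in CD45.2, with 53.5, 58.8 and 57.3 at rest and 58.6, 70.0 and 79.7 after LPS in CD45.1 (term -2.12, SE 0.38, adjusted p 0.0001). At chr16:24933973-24934087, in an intron and 125695 bp from A230028O05Rik, CD45.2 rose from 11.9 ± 5.02 to 64.2 ± 3.24 tags beside 51.6 ± 2.30 and 54.0 ± 10.4 in CD45.1 (term -2.26, SE 0.39, adjusted p 3.95e-05). At both sites the host alone passed the test of a change with LPS, and the difference of that change from the graft's is the term. These 8 leading peaks also passed with the mouse block, at adjusted p between 4.98e-05 and 0.00751.

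**Figure D2:**
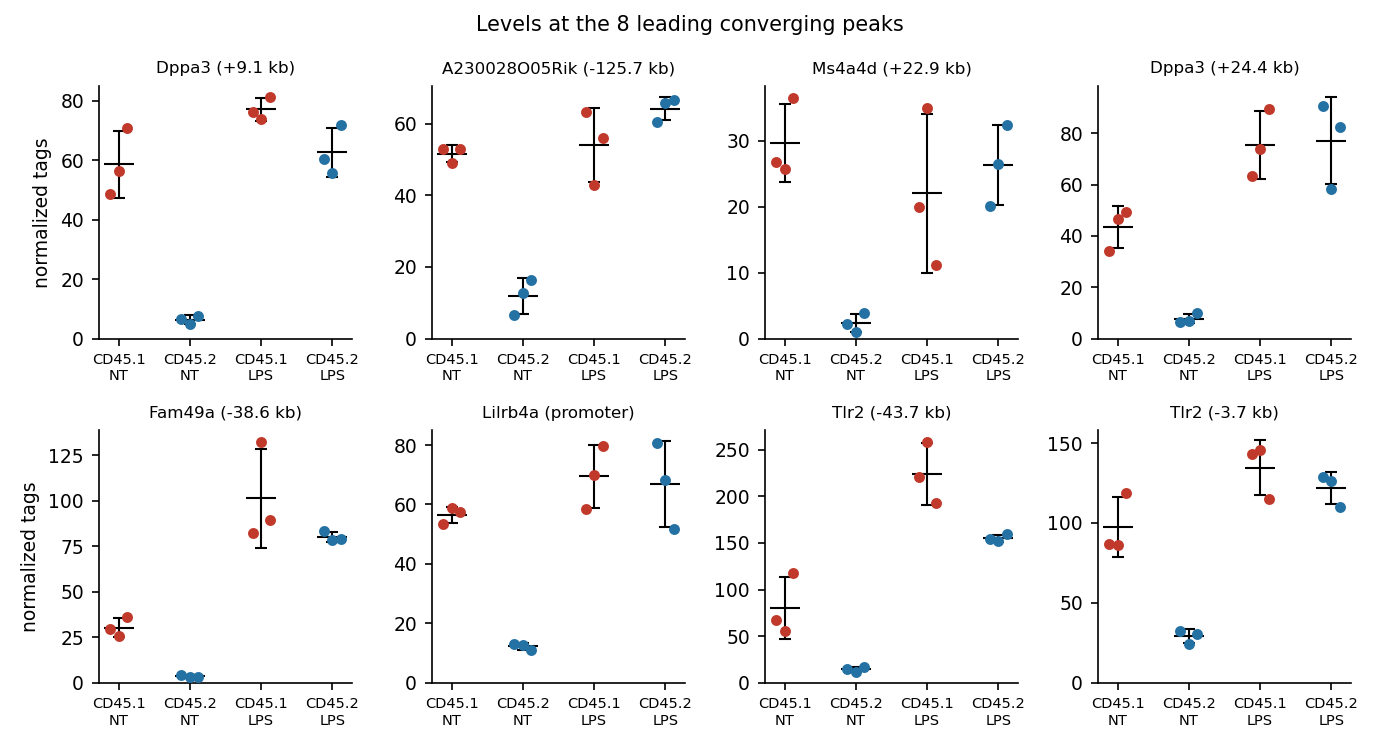
Normalized tags per library (points) at the 8 leading converging peaks in each group, with the mean (wide bar) and SD (whiskers, n = 3), red for CD45.1 and blue for CD45.2, titled by the nearest gene and the distance to its start. In each panel the untreated CD45.2 libraries lie below all others, and after LPS the mean of CD45.2 is 69.2% to 120% of that of CD45.1.

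All 86 converging peaks from the CD45.1 side had the same shape. The host rose by more than 2-fold with LPS in 86 of 86 (background 7.68% of all tested peaks), with a median of 2.60 on the log2 scale. The graft rose in 24 of 86 (background 6.77%), fell in none (background 4.98%), and had a median change of 0.56, while 3.7% of all peaks fell in the host. Since the term is made of these 2 changes, they describe where it came from and are no further evidence of it. At the median of these peaks, CD45.1 libraries had 48.2 tags at rest and 72.7 after LPS, and CD45.2 libraries 8.14 and 55.7, which is 19.5% and 78.9% of the graft level. The median log2 ratio was 2.08, 2.39 and 2.36 in untreated mice 4, 5 and 6 and 0.26, 0.48 and 0.34 in LPS mice 1, 2 and 3. The ratios of LPS mice were all below those of untreated mice at 86 of 86, as at 7.84% of all tested peaks, and all above them at none (5.57% of all). After LPS 75 of the 86 differed by less than 2-fold, and 48 by less than 0.5 on the log2 scale. The LPS window was wider than the untreated window by a median factor of 1.31 at these peaks and 1.22 at all, and the part of this in the result was not tested.

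The genes nearest to the 86 peaks (82 in all) include several of innate immune defence. The LPS-inactivating enzyme Aoah converged at its promoter (term -1.54), as did Klra2, a lectin-like receptor of myeloid cells (-3.17), the water and glycerol channel Aqp9 (-2.77) and Ifi211, of the interferon-inducible DNA sensor family (-1.61). Peaks near receptors and sensors of microbes included those of Tlr13 (-2.31), the formyl peptide receptor Fpr1 (-2.49), the DNA sensor Aim2 (-1.36) and the lectin receptor Clec4d (-2.36). Peaks near genes of lipid handling included those of the scavenger receptors Cd36 (-2.86) and Scarb1 (-2.13), the lipid droplet protein Plin2 (-1.58) and the apolipoproteins Apoc1 (-1.48) and Apoc4-apoc2 (-2.84). Other peaks lay near the complement receptor C3ar1 (-1.66), the NADPH oxidase subunit Cybb (-2.23), the interferon factor Irf2 (-3.19) and the cathepsin Ctsc (-2.96). These examples were chosen after their values were seen, and each passed at an adjusted p between 0.000181 and 0.0482.

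Most of these sites were distal. Of the 86, 48 (55.8%) were intergenic, 29 (33.7%) intronic and 7 (8.14%) at promoters, against 31.5%, 35.4% and 27.4% of all tested peaks. In other words the ratio fell at 0.397% of intergenic, 0.209% of intronic and 0.0745% of promoter peaks. The median distance to a start site was 16.6 kb, against 8.56 kb over all peaks, and the median GC content of the middle 200 bases was 45% against 53%. Of the 1432 peaks higher in CD45.1 at rest by over 4-fold, 698 were intergenic, 601 intronic and 85 at promoters, with a median GC of 44%. The distal location and low GC were therefore also those of peaks higher in CD45.1 at rest, and are not particular to convergence. Members came from 20 chromosomes, and 26 of the 86 lay in 10 runs in which neighbours were at most 300 kb apart. In the Ms4a cluster, chr19:11505781-11634341, 4 of 8 tested peaks were members, near Ms4a4b, Ms4a6b, Ms4a6c and Ms4a4d, and all 4 others were below 0 (median -0.59). Between Apoc4-apoc2 and Apoc1 both tested peaks were members, and in the Nfkbiz region 2 of 10 were, with the other 8 below 0 (median -0.86).

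Motifs were searched on both strands of the middle 200 bases as TTGCNNAA (C/EBP, a family that controls myeloid and acute-phase genes), TGANTCA (AP-1 with a 1-base spacer) and TGANNTCA (AP-1 or CRE-like with a 2-base spacer). The others were GGANNTTCC (NF-kappaB), GAAANNGAA (IRF), AGGAAGT (PU.1), TGTGGTT (RUNX), CTANNNNTA (MEF2) and CACGTG (E-box). C/EBP letters stood in 41 of the 86 converging peaks (47.7%), against 10.6% of all tested peaks. Among the peaks higher in CD45.1 at rest by over 4-fold the share was 24.6%, and among those that rose with LPS in CD45.2 it was 24%. The converging peaks were higher in CD45.1 at rest and also rose in CD45.2. The share over all peaks with both traits was not counted, so neither set is a like reference. The 1-base AP-1 letters stood in 34.9% of converging peaks, 9.75% of all, 23.1% of those higher in CD45.1 and 34.0% of those that rose in CD45.2. Both motifs together stood in 14 of the 86 (16.3%) and in 1.26% of all, and at least 1 of them in 66.3% and 19%. Among peaks of 40% to 50% GC the C/EBP share was 46.5% of 71 converging peaks and 15.7% of all, a narrower gap than over all GC contents. Read the other way, the ratio fell at 0.991% of the 4139 peaks with C/EBP letters and at 0.134% of those without. Among peaks higher in CD45.1 at rest, those shares were 8.81% and 2.69%. NF-kappaB (4.65% against 3.4% of all), PU.1 (18.6% against 20.1%), RUNX (6.98% against 5.51%) and E-box letters (4.65% against 6.3%) stood at shares nearer to those of all peaks. The 2-base AP-1 (16.3% against 9.14% of all), MEF2 (19.8% against 12.8%) and IRF letters (11.6% against 7.87%) were more frequent than over all peaks. Among peaks higher in CD45.1 at rest by over 4-fold, these last shares were 13.2%, 22.2% and 11.9%. Among peaks higher in CD45.1 at rest, the ratio fell at 4 of 37 with NF-kappaB letters (10.8%) and at 4.01% of those without. These letters describe the sequence and do not show that a factor was bound.

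**Figure D3:**
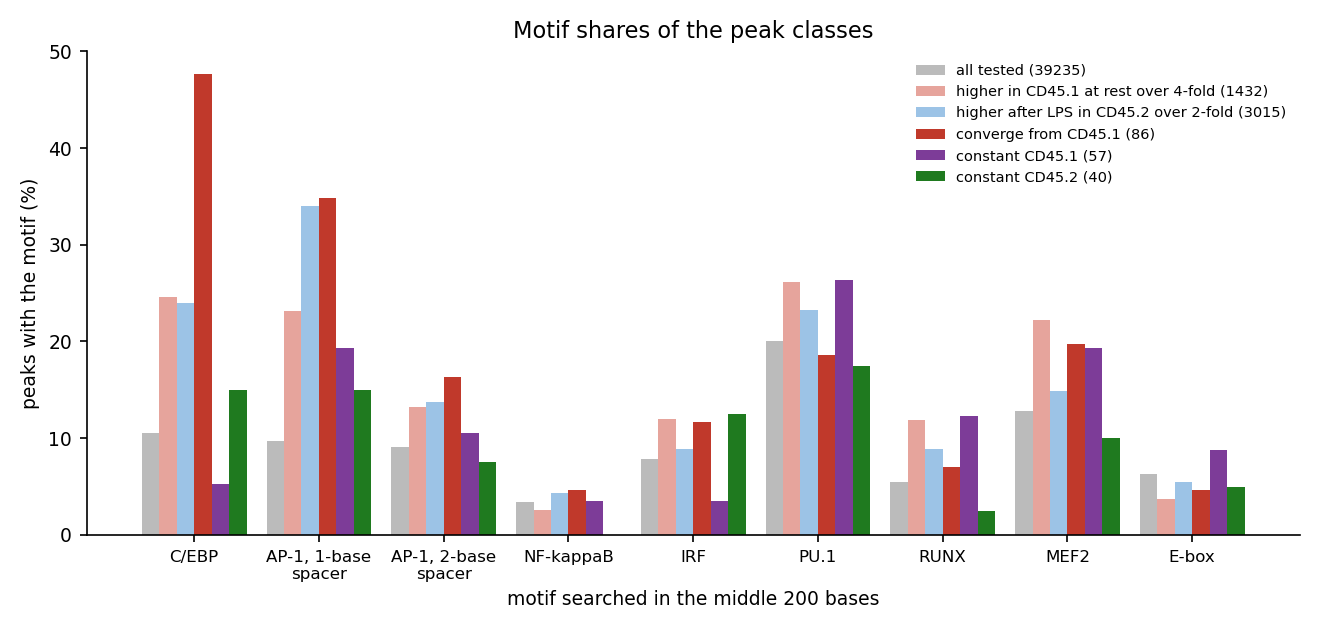
Share of peaks (%) whose middle 200 bases hold each motif, for all tested peaks (grey), reference sets of peaks (pale red and pale blue) and the classes converge from CD45.1 (red), constant CD45.1 (purple) and constant CD45.2 (green), with the number of peaks in brackets. The red bar reaches 47.7% for C/EBP, where the purple bar is 5.26%, and 34.9% for the 1-base AP-1 motif, where the pale blue bar is 34.0%.

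Convergence from the host side was rare and rested on weaker calls. In an intron of Dock4, an activator of Rac, at chr12:41311535-41311780, CD45.1 libraries went from 38.6, 32.5 and 34.4 tags to 103, 109 and 95.1, and CD45.2 libraries from 81.6, 82.2 and 63.7 to 95.8, 88.4 and 70.0. Here the graft came up to the host (term 1.40, SE 0.30, adjusted p 0.00297). The same held in an intron of Rufy3, chr5:89002519-89002660, where CD45.1 rose from 12.3 ± 3.32 to 69.5 ± 4.65 and CD45.2 from 36.4 ± 4.77 to 63.5 ± 4.38 (term 1.71, SE 0.38, adjusted p 0.00505). In an intron of the glutamate transporter Slc1a3, chr15:8592358-8592499, the host closed instead, from 103, 92.7 and 104 tags to 37.8, 45.5 and 46.4, and the graft held 7.47, 5.51 and 2.87 at rest and 8.2, 11.7 and 14 after LPS. The difference of -4.22 (SE 0.36) became -1.99 (SE 0.39), with a term of 2.23 (SE 0.53, adjusted p 0.0135). A peak 25865 bp upstream of Mxi1, a repressor of the Myc network, went from 40.5 ± 1.53 to 26.3 ± 9.22 in CD45.2 and from 21.5 ± 1.51 to 43.4 ± 5.31 in CD45.1 (term 1.73, SE 0.43, adjusted p 0.0265). Its difference passed from -0.91 (SE 0.28) at rest to 0.81 (SE 0.33) after LPS, a change of side at nearly the same size. It was classed as converging only because the second difference is slightly smaller. With the mouse block none of the 4 passed, at adjusted p of 0.0963 (Dock4), 0.140 (Rufy3), 0.112 (Slc1a3) and 0.347 (Mxi1). Rufy3 was lost without the CD45.1 library of untreated mouse 6 (0.057), Slc1a3 without that library (0.109) or the CD45.1 library of LPS mouse 3 (0.178), and Mxi1 without any of 8 single libraries.

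Divergence towards CD45.1 had the smallest p at an intergenic peak, chrX:166436002-166436297, near G530011O06Rik. CD45.2 libraries held 25, 22.7 and 23.1 tags at rest and 2.52, 7.58 and 3.50 after LPS, while CD45.1 libraries held 142, 134 and 165 and then 130, 179 and 129. The graft level overlapped between treatments and the host level dropped (term 2.28, SE 0.52, adjusted p 0.00888, and 0.0473 with the mouse block). Without the CD45.2 library of LPS mouse 3 the adjusted p was 0.33. The LPS window was narrower here, 202 bp against 296 bp, and an adjacent peak, chrX:166435849-166435953, was constant, with differences of 2.32 at rest and 2.53 after LPS. The other 2 peaks, in an intron of the phosphoinositide phosphatase Inpp4b (term 2.88, SE 0.71, adjusted p 0.0212) and near the sialyltransferase St3gal1 (1.63, SE 0.41, adjusted p 0.0265), passed from the host's side at rest to the graft's after LPS. At the Inpp4b peak means were 9.94 ± 3.65 in CD45.1 and 18.7 ± 1.93 in CD45.2 at rest, and 20.5 ± 7.20 and 5.96 ± 3.83 after LPS. With the mouse block their adjusted p were 0.188 and 0.284, and they were lost without any of 9 and 8 single libraries. The number of peaks that diverged was 1 without the CD45.1 library of untreated mouse 6 or the CD45.2 library of untreated mouse 5 and 2 or 3 without any of 6 others, and the number whose ratio rose was 4 without either of these, the CD45.2 library of untreated mouse 4 or that of LPS mouse 3.

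Divergence towards CD45.2 took place at 2 peaks. One lay 40376 bp from the start of Sirpa, the receptor for the signal CD47, at chr2:129459180-129459383. It held 103, 113 and 124 tags in CD45.1 and 104, 97.5 and 94.5 in CD45.2 at rest. After LPS it held 89.1, 58.3 and 44.8 in CD45.1 and 136, 157 and 115 in CD45.2, so the groups, close before, no longer overlapped (term -1.25, SE 0.29, adjusted p 0.0113). The other was the promoter of the stress factor Atf3, chr1:193007207-193007399, with 138 ± 18 and 101 ± 1.34 tags at rest and 104 ± 12.8 and 156 ± 15.7 after LPS in CD45.1 and CD45.2 (term -1.01, SE 0.25, adjusted p 0.0211). Its difference passed from the graft's side at rest (0.44, SE 0.16) to a slightly larger one on the host's side after LPS (-0.56, SE 0.19). With the mouse block the adjusted p were 0.105 and 0.332, and each call was lost without any of 5 single libraries.

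**Figure D4:**
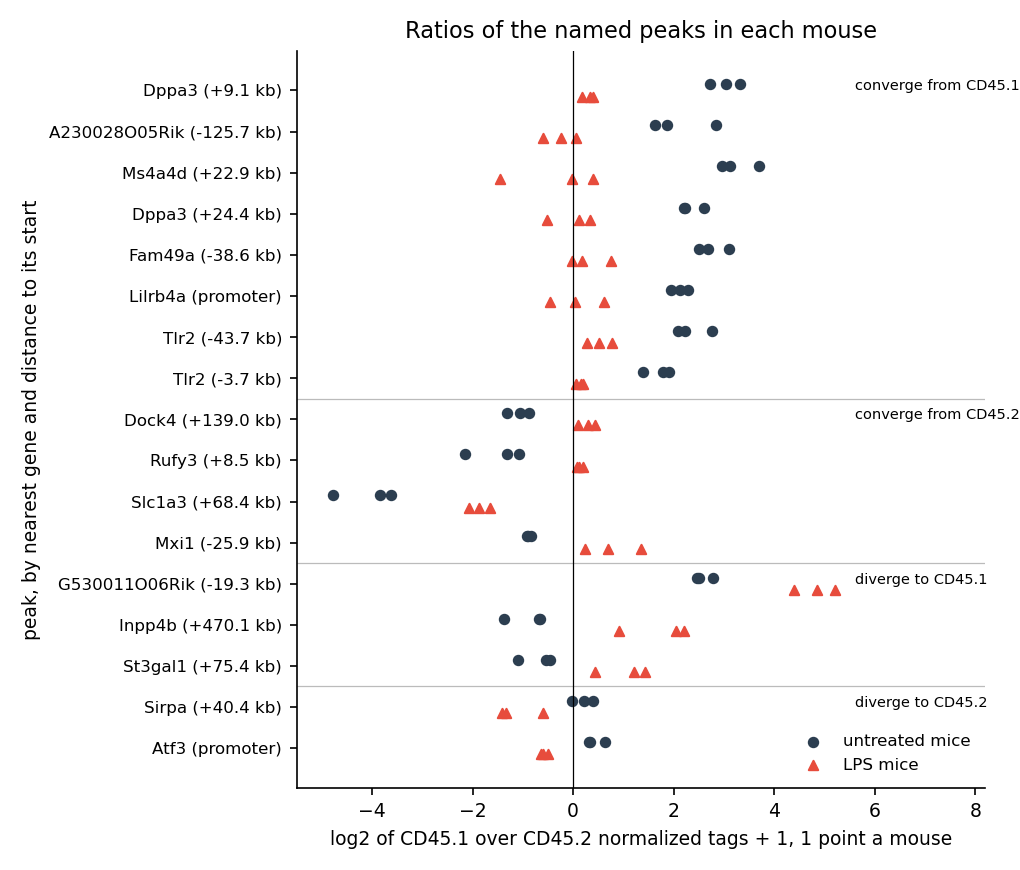
The log2 ratio of CD45.1 over CD45.2 (normalized tags + 1) in each of the 3 untreated mice (circles) and the 3 LPS mice (triangles) at the 17 peaks named for their term, with the distance to the start of the nearest gene. At each of these peaks the circles and the triangles do not overlap, and in the upper 8 the triangles lie between -1.45 and 0.77. The peaks were chosen by a p from these same values, so the separation is no further evidence. Over all tested peaks, the LPS ratios lay below all untreated ones at 7.84% and above them at 5.57%.

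A constant difference was shown at 57 peaks higher in CD45.1 and 40 higher in CD45.2. Their differences were of moderate size, with medians of 1.26 at rest and 1.26 after LPS in the first set and -1.51 and -1.50 in the second. LPS moved some of them without moving the ratio. In an intron of Arhgap18, chr10:26519454-26519597, CD45.1 libraries went from 99, 121 and 138 tags to 204, 220 and 227 and CD45.2 libraries from 59.8, 47.4 and 58.2 to 108, 101 and 89.3. The host stayed at 46.3% and 46.0% of the graft (term 0.02, SE 0.26, adjusted p of the test for a term within 2-fold 0.00269). In an intron of Mogat1, an enzyme of triglyceride synthesis, both populations rose by more than 2-fold, to 139 ± 16.8 from 58.0 ± 8.11 in CD45.1 and to 54.2 ± 5.84 from 23.2 ± 4.39 in CD45.2 (term 0.03, SE 0.33, adjusted p for constancy 0.00968). An intergenic peak near 4930503B20Rik and the promoter of Tppp3, a tubulin-binding protein, were also constant (terms -0.05 and 0.04, adjusted p for constancy 0.0117 and 0.00927), the first with 0.083 without the CD45.2 library of untreated mouse 6.

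On the host side, an intergenic peak at chr3:5860586-5860702, with Pex2 nearest, held 285, 222 and 179 tags in CD45.2 and 36.1, 42.9 and 40.1 in CD45.1 at rest. After LPS it held 212, 255 and 167 and 24.6, 56.4 and 30.8, so the treatments overlapped in each population (term -0.05, SE 0.34, adjusted p for constancy 0.0134, and 0.0804 without the CD45.1 library of LPS mouse 2). At the promoter of Nr3c2, the mineralocorticoid receptor, both populations rose by less than 2-fold, and means were 185 ± 38.2 and 327 ± 97.8 in CD45.2 beside 56.7 ± 4.49 and 109 ± 25.6 in CD45.1 (term 0.12, SE 0.30, adjusted p for constancy 0.0111). Peaks near Gtpbp4 (-1.95 at rest and -1.91 after LPS) and in an intron of Oscp1 (-1.67 and -1.61) completed the named set. C/EBP letters stood in 5.26% of the constant CD45.1 and 15.0% of the constant CD45.2 peaks. Within 1.5-fold no peak could be shown to be constant, and within 2-fold 39 were with the mouse block. The count of 97 was 50, 52, 63 and 61 without the CD45.1 libraries of LPS mice 1 and 2 and untreated mice 4 and 5, and 48, 53 and 55 without the CD45.2 libraries of LPS mouse 2 and untreated mice 5 and 6.

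The large differences were fewer after LPS. At rest 1432 peaks were higher in CD45.1 by over 4-fold (background 3.65%) and 835 in CD45.2 (2.13%). After LPS the counts were 667 (1.7%) and 516 (1.32%), at lower depth. Over the 1432 the host level was a median of 11.5% of the graft level at rest and 21.9% after LPS, with upper quartiles of 18.3% and 37.2%. Of them 602 were also called after LPS, and these, which had to be over 4-fold in both treatments, had medians of 6.01% and 9.25%. These values describe peaks that were chosen by the same differences and are no test. The promoter of the heparan sulfate sulfotransferase Hs3st1, chr5:40035887-40036017, picked out once its values were known, held 119 ± 28.8 and 3.22 ± 1.84 tags in CD45.1 and CD45.2 at rest and 150 ± 35.0 and 7.38 ± 0.33 after LPS. Its term of -0.95 (SE 0.61, adjusted p 0.981) did not pass.

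A peak chosen for a large difference tends to be less extreme in any other sample, so the peaks were also chosen in 1 mouse and read in the others. Peaks at least 4-fold higher in CD45.1 in 1 untreated mouse had a median log2 ratio of 2.54 in the other untreated mice and of 1.95 in the LPS mice, or 0.769 of it, with 0.755 to 0.777 over the 3 choices. Peaks higher in CD45.2 in 1 untreated mouse kept 0.974 of theirs (0.920 to 1.05). Chosen in 1 LPS mouse, peaks higher in CD45.1 had a ratio in untreated mice that was 1.18 times that in the other LPS mice (1.08 to 1.25), and peaks higher in CD45.2 one that was 1.04 times as large (0.971 to 1.14). The graft-high ratio was thus the larger at rest in all 6 choices, and the host-high ratio had no common direction. With a pseudocount of 5 in place of 1, the graft-high shares were 0.844 and 0.950, so the second no longer lay above 1.

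Over all peaks the spread of the ratios was compared between mice. With the tags in matched peaks of every library thinned to the lowest of these totals, the SD of the log2 ratios was 0.950, 0.945 and 1.04 in untreated mice 4, 5 and 6 and 0.984, 0.985 and 0.988 in LPS mice 1, 2 and 3. The difference of 0.0054 had p = 1 in an exact two-sided permutation test, in which 3 against 3 mice can reach no less than 0.1, so it cannot show that the spread stayed the same. Without thinning the difference was 0.0902 (exact permutation p = 0.2). Across the 39235 peaks, which share windows and base composition, the fitted differences at rest and after LPS had a Pearson correlation of 0.825 and a Spearman correlation of 0.584. 

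**Figure D5:**
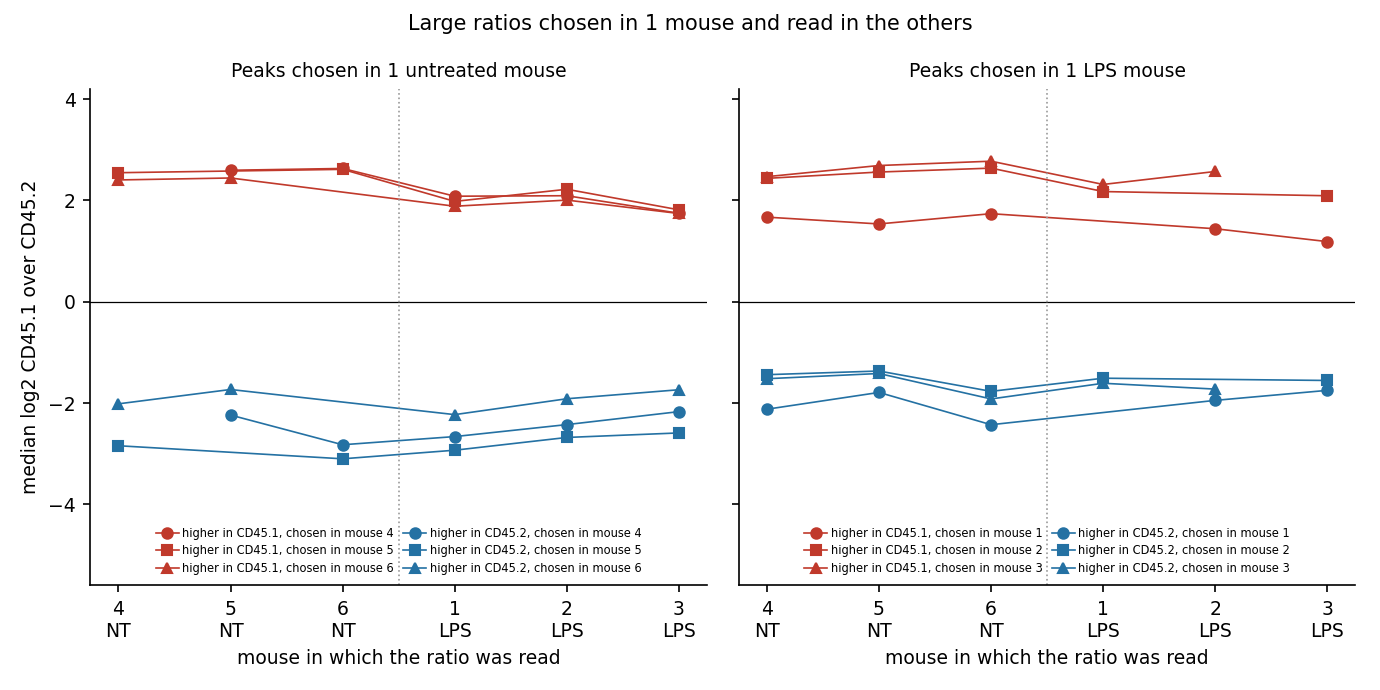
Median log2 ratio of CD45.1 over CD45.2, read in each mouse that was not used for the choice, of peaks at least 4-fold different in 1 untreated mouse (left) or 1 LPS mouse (right), red for peaks higher in CD45.1 and blue for those higher in CD45.2. On the left the red lines drop from between 2.40 and 2.63 in untreated mice to between 1.74 and 2.22 in LPS mice, and the blue lines show no common drop.

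Summed over the matched peaks of a gene, the ratio fell at 22 of 14778 genes (background 0.149%) and rose at 6 (0.0406%). The Dppa3 sum led, with 281, 329 and 359 tags in CD45.1 and 114, 104 and 133 in CD45.2 at rest and 339, 400 and 323 and 361, 315 and 329 after LPS. The populations, well apart at rest, overlapped after LPS (term -1.38, SE 0.20, adjusted p 1.01e-07). The Klra2 sum rose in both, from 19.8 ± 4.51 to 143 ± 4.48 tags in CD45.2 and from 148 ± 20.5 to 311 ± 63.4 in CD45.1, and the graft was still ahead (term -1.76, SE 0.29, adjusted p 5.96e-06). At Aoah, the enzyme that removes fatty acyl chains from LPS, CD45.2 went from 38.4, 36.0 and 45.5 to 152, 196 and 201 tags and CD45.1 from 86.1, 85.8 and 97.9 to 198, 135 and 146 (term -1.37, SE 0.27, adjusted p 0.000599). By p, Apoc4-apoc2 (-2.82, SE 0.51), Ms4a4b (-2.18, SE 0.40) and Lipg, the endothelial lipase (-1.60, SE 0.31), ranked between Klra2 and Aoah, the first pair on 1 peak each. Among the rest of the 22 were the chemokine receptor Ccr1 (-1.72), Fpr1 (-2.47), Clec4d (-2.23) and Cd36 (-1.10).

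The 6 genes whose ratio rose had terms of 0.85 to 2.11. Spock1, a proteoglycan gene, was nearly closed in the graft, with 3.83, 10.1 and 1.44 tags at rest and 9.43, 19.3 and 15.5 after LPS, and went from 105, 109 and 106 to 61.0, 69.2 and 66.4 in the host (term 2.11, SE 0.50, adjusted p 0.0210). Il7r, the receptor chain for interleukin 7, rose in CD45.1 from 74.8 ± 12.0 to 181 ± 55.9 tags and was at 65.2 ± 3.10 and 68.9 ± 17 in CD45.2 (term 1.25, SE 0.32, adjusted p 0.0493). The activin receptor Acvr2a (0.85, SE 0.20), the catenin Ctnnd2 (1.25, SE 0.30) and the transporter Abcc1 (0.97, SE 0.24) also moved towards the graft, and the sulfotransferase Chst2 converged from the host side (1.14, SE 0.29). With the mouse block 6 genes fell and none rose, and with the tags of all peaks of each table, matched or not, 33 fell and 36 rose. With the mouse block, Dppa3, Klra2, Apoc4-apoc2, Lipg and Ms4a4b of the named genes still passed (adjusted p 0.000517 to 0.0278). Under it Aoah had 0.0961, Cd36 0.288 and the 6 that rose 0.242 to 1. The count of falls also dropped without the CD45.1 library of LPS mouse 2 (12) or 3 (13) or untreated mouse 4 (12) or 6 (6), and without the CD45.2 library of LPS mouse 3 (9) or untreated mouse 4 (13), 5 (6) or 6 (14). Without any one of 9 libraries at most 1 gene rose, and Cd36 was lost without any one of 9.

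Among 10 lists of genes by pathway or cell type, no gene passed as a sum by DESeq2 or by edgeR. An unadjusted p under 0.05 was found for 6.15% of all genes. The highest counts in a list were 6 of 17 damage-associated and 4 of 22 chemokine and cytokine genes, and the lowest was 0 of 15 antigen presentation genes. Of 22 homeostatic microglia genes 2 had such a p. Their median term was 0.13 with 5 below 0, against -0.003 and 50.4% below 0 over all genes. The host changed with LPS by a median of -0.39 at these genes and the graft by -0.14. Border-associated macrophages are the other resident macrophages of the brain, at its surfaces and vessels. Of 14 measured genes of their list 3 had an unadjusted p under 0.05, 12 were below 0 (median -0.42), and 3 of 57 peaks fell (5.26%, against 0.224% of all), or 1 with the mouse block. Those peaks were at Cd38 (term -4.47), the clathrin adaptor Dab2 (-2.20) and the coagulation factor F13a1 (-3.45), whose sums had adjusted p of 0.099, 0.752 and 0.0957. The genes of this list were higher in CD45.1 at rest (median 0.90), so the share over all peaks is not a like reference. Of the 1432 peaks higher in CD45.1 at rest by over 4-fold, 61 passed the term in either direction.

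Of the TLR4 pathway 2 of 59 peaks fell (both at Tlr2), of NF-kappaB genes 1 of 108 (Nfkbiz, encoding an atypical inhibitor of NF-kappaB, term -1.39), and of AP-1 and other immediate early factors 2 of 135 (Atf3 and Maf, the latter with -2.64 at the peak and 0.10 as a sum over 23 peaks). These were 3.39%, 0.926% and 1.48% of the peaks of each list, against 0.224% of all peaks. With the mouse block 2, 0 and 1 peaks of these lists fell. Over all peaks 5.33% had an unadjusted p under 0.05. Of the interferon list 2 of 74 peaks did, of the C/EBP and monocyte list 12 of 145, of the antigen presentation list 2 of 46 and of the damage-associated list 12 of 69, and none of these passed after adjustment by DESeq2 or edgeR. Of the chemokine and cytokine list 8 of 81 had an unadjusted p under 0.05, none passed by DESeq2 and 1 by edgeR, and 2 were constant.

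None of 8 further genes that the study names passed the term by DESeq2 or edgeR, and 2 of them had an unadjusted p under 0.05. The terms were -0.45 (SE 0.33) for Apoe, -0.39 (SE 0.34) for Ms4a7, -0.61 (SE 0.31) for H2-Ab1, 0.46 (SE 0.31) for Klf12 and 1.47 (SE 0.46, adjusted p 0.257) for Dbi. For the scavenger receptor gene Marco and for Sall1, the factor of microglial identity, both nearly closed in the graft, the terms of -0.39 (SE 0.87) and 0.14 (SE 0.84) leave room for changes of over 2-fold in either direction. Spp1, encoding osteopontin, had 1.11 (SE 0.38, adjusted p 0.470). Of the genes the study lists for their RNA response, Tnf (-0.53), Ccl5 (-0.68), Tnfaip3 (-0.28), Trem2 (0.24), Cx3cr1 (0.09), Aif1 (-0.33), Cmah (-0.92), Irf7 (-0.37), Pirb (0.23), Gpr65 (-0.14), Il12b (-0.20) and Tlr2 (-0.40) had adjusted p between 0.54 and 0.95. Clec4e (-2.09) and Upk1b (0.56) held too few tags for an adjusted p. Of these, Cd36 alone passed as a sum, and Tlr2 by its 2 peaks.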

How the data were processed

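ATAC-seq libraries of sorted brain macrophages were analysed from the merged peak tables of the untreated and the LPS mice. The authors deposited estimated counts of tags per library in the peaks of each table, in steps of 0.5 tag (48.9% of values were not whole), and these were rounded to whole numbers. Per the submitters' processing notes, reads were handled with bcl2fastq 2.17.1.14, Bowtie2, Picard 1.108 and HOMER on mm9, and replicates were counted in merged peaks. Peaks called in single libraries were not used here, and samples of a further experiment named in the design text were not analysed here.

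Windows of the tables were paired by reciprocal overlap of at least 50%, each with its best partner. Pairs with more than 10 tags in at least 1 library were fitted with DESeq2 1.42.0 (R 4.3.3) on population, treatment and their product, with its size factors. Benjamini-Hochberg adjustment followed the DESeq2 filter on mean counts, so pairs below that filter had no adjusted p. The term was called at an adjusted p under 0.05. Populations were called different at an adjusted p under 0.01 and over 4-fold, and changes with LPS at an adjusted p under 0.05 and over 2-fold. A constant difference needed the DESeq2 test for a term within 2-fold. Gene values are tags summed over the matched peaks nearest to a gene. Ratios by mouse used a pseudocount of 1 tag. Tables were joined with pandas 2.3.3 in Python 3.11.15, and sequences were read from the mm9 assembly. The fits were tested on simulated data.

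Replicate numbers in the titles were taken to mark a mouse from which both populations were sorted. They pair the libraries on that reading, and the mouse was used as a block in an alternative fit. The deviations of same-mouse libraries from their group means correlated with r of -0.21 to 0.19. Those of libraries with different numbers in the same treatment had r of -0.18 to 0.15, so these values do not show the pairing. Mice are the replicates. Alternatives were edgeR 4.0.16, scaling to total tags, filters, an overlap of 80%, thinning to the lowest depth, a GC correction and leaving out each library. Named peaks were the 8 with the smallest p in each direction and the 4 smallest of each class. Named genes were the 6 smallest in each direction, the 6 with the most passing peaks, genes the study names, and list members with a passing sum or peak. The members, lists and tests were chosen with earlier results of these data known.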

Additional observations from a re-analysis of the deposited data

Results flagged for a closer look

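The difference between the populations changed with LPS, by the test of that change itself, at 88 peaks with a fall and 7 with a rise of the ratio, and at 22 and 6 genes. Among the named peaks the term was -2.94 and -2.46 at Dppa3, -2.26 at A230028O05Rik, -4.00 at Ms4a4d, -2.80 at Fam49a, -2.12 at Lilrb4a and -1.97 and -1.60 at Tlr2. It was 1.40 at Dock4, 1.71 at Rufy3, 2.23 at Slc1a3, 1.73 at Mxi1, 2.28 at G530011O06Rik, 2.88 at Inpp4b and 1.63 at St3gal1, and -1.25 at Sirpa and -1.01 at Atf3. Among the named genes it was -2.82 for Apoc4-apoc2, -2.18 for Ms4a4b, -1.76 for Klra2, -1.60 for Lipg, -1.38 for Dppa3, -1.37 for Aoah and -1.10 for Cd36. The genes with a rise had 0.85 (Acvr2a), 0.97 (Abcc1), 1.14 (Chst2), 1.25 (Il7r), 1.25 (Ctnnd2) and 2.11 (Spock1).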

How the results depend on the processing

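All of the 88 peaks whose ratio fell kept that direction in every alternative in which they were tested (30 with an overlap of 80%, 85 with a mean of at least 20 tags, 88 in the others), but the number past the threshold depended on depth and scaling. With edgeR the ratio fell at 123 peaks and rose at 16, 11 diverged and 1 crossed, and 16 genes fell and 0 rose; edgeR has no test for a constant difference. With scaling to total tags, which moved the median term of all peaks from -0.02 to 0.08, it fell at 26 peaks and rose at 1, with 26 converging, 1 diverging and 9 constant, and 1 gene fell and 0 rose. With a mean of at least 20 tags the populations differed at 703 peaks at rest and 407 after LPS, against 2267 and 1183. With an overlap of 80%, in fewer pairs, it fell at 33 and rose at 2, with 33 converging, 2 diverging and 35 constant, 646 peaks differed at rest and 322 after LPS, and 1 gene rose. With thinning to the lowest depth it fell at 1 and rose at 0, with 1 converging, 0 diverging and 10 constant, 864 and 539 peaks differed, and 2 genes fell and 0 rose.

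With the mouse as a replicate block it fell at 50 peaks and rose at 1, with 50 converging, 1 diverging and 39 constant, and 6 genes fell and 0 rose. With the block and a GC correction the values were 45 and 2, with 46 converging, 1 diverging and 36 constant, and 7 genes fell and 0 rose. Within 1.5-fold 0 peaks were constant. With the tags of all peaks of each table, matched or not, 33 genes fell and 36 rose. The ratio of peaks chosen in single mice was 0.950 with a pseudocount of 5 (chosen in LPS mice, higher in CD45.1), 0.936 at 2-fold (LPS, CD45.2), 0.726 at 2-fold, 0.844 with a pseudocount of 5 and 0.716 with at least 20 tags, an alternative chosen after seeing the data (untreated, CD45.1), and 0.905 at 2-fold (untreated, CD45.2).

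Leaving out single libraries, the ratio fell at 42 to 105 peaks and rose at 4 to 9, 45 to 108 converged, 1 to 7 diverged, 0 to 2 crossed and 48 to 84 were constant. The populations differed at 1808 to 2366 peaks at rest and 851 to 1250 after LPS, and 6 to 22 genes fell and 0 to 10 rose. Some terms that did not pass changed sign. They were Gpr65 at 0.43, Maf at -0.14, Marco at 1.83 and Sall1 at -0.048 with an overlap of 80%, and Pirb at -0.22 after thinning. Without single libraries Cx3cr1 lay between -0.018 and 0.24, Sall1 between -0.39 and 0.77 and Marco between -0.98 and 0.22. The cause of these changes was not tested.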
